A study of Mus musculus with 12 samples.

Results

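Transcripts of 9 interferon-inducible GTPases were followed across RNA-seq libraries of sorted mouse regulatory T cells: Gm4951, Iigp1, Igtp, Irgm1 and Irgm2 of the immunity-related GTPase (IRG) family and Gbp2, Gbp3, Gbp7 and Gbp10 of the guanylate-binding protein (GBP) family. They are 9 of 21839 genes in the count table. The set was chosen by a measured result of the same libraries, namely that Gm4951 and Iigp1 were higher in TG than in WT cells, so every TG and WT difference of the members is a description without a test. The comparison of the CD25 gates and that of the replicate numbers were not used in the choice.
The mice were C57BL/6 with both Atg5 alleles floxed. TG mice also carried Cre under the CD11c promoter, which is active mainly in dendritic cells, and WT littermates had no Cre. Cells positive for CD4 and CD62L were pooled from spleen and from inguinal, cervical and brachial lymph nodes and sorted as CD25 High or CD25 Low, with no Foxp3 stain named. TG High, WT High, TG Low and WT Low held 3 libraries each, numbered 1 to 3. The labels do not say that numbers are separate animals, so the errors below measure the spread between libraries, which may be technical. Errors of fits with the replicate number as a block measure only the spread left after differences between numbers are removed. In these bulk samples fewer cells of a type and less RNA per cell cannot be told apart.

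IRG and GBP proteins are GTPases that cells make after exposure to interferon, above all interferon gamma. In mouse cells they are known for attacking the vacuoles in which intracellular parasites and bacteria live. Iigp1 encodes Irga6, an effector that coats such vacuoles, whereas Igtp (also called Irgm3), Irgm1 and Irgm2 encode regulatory IRG proteins that hold the effectors inactive on the cell's own membranes. GBPs are larger GTPases that assemble on the same vacuoles and on bacteria. Their genes answer to interferon through the interferon-stimulated response element (ISRE), which interferon regulatory factors such as IRF1 bind, and through the gamma-activated site (GAS).

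Promoters are shown as a description of the genes, and their part in the member values was not tested. RefSeq promoters on build GRCm38.p6, each 300 bases long with 250 before and 50 from the transcript start onwards, were matched by symbol for 6 of 9 members, with 7 starts because Gbp3 had an additional one. An ISRE core was searched as GAAANNGAAA on both strands, and 6 of the 7 windows held it, at least one for each of the 6 genes. The second Gbp3 window had none. Gm4951, Iigp1 and Gbp10 were not matched to a promoter. Of all 32851 promoters of that length, 3.44% held this motif. Capitals mark the matched bases, the strand is that of the gene, and the first 3 genes are shown whole and the last 3 as 80 bases around the match.
Igtp (chr11:58199306-58199605, + strand): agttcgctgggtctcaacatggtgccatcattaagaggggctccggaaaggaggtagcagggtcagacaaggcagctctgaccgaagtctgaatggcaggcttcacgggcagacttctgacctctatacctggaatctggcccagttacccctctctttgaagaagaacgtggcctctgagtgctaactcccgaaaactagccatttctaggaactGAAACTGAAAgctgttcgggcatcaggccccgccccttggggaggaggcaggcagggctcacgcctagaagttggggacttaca
Irgm2 (chr11:58214727-58215026, + strand): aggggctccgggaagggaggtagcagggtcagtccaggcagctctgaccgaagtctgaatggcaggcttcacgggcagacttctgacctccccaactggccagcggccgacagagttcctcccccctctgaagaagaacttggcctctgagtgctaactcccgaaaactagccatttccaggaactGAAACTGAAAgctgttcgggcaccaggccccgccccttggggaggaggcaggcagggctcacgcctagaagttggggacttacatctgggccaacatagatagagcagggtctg
Gbp3 (chr3:142559794-142560093, + strand): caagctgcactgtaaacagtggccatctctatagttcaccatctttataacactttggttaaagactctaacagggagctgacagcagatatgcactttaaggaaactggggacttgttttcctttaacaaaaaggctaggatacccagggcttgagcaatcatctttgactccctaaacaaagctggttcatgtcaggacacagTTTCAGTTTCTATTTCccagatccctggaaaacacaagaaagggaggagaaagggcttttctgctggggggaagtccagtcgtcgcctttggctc
Irgm1 (chr11:48871403-48871482, - strand): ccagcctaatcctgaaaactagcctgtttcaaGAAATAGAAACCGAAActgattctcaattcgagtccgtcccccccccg
Gbp2 (chr3:142620569-142620648, + strand): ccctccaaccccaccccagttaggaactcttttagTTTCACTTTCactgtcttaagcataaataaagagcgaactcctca
Gbp7 (chr3:142530248-142530327, + strand): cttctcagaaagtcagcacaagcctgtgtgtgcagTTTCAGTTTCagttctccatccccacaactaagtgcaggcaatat
The matches lay close to the start in each of the 6 genes, at positions -34 to -25 in Igtp, -64 to -55 in Irgm2, -30 to -15 in Irgm1, -45 to -30 in Gbp3, -59 to -50 in Gbp2 and -53 to -44 in Gbp7, where negative positions count bases before the start. Irgm1 and Gbp3 each held 2 overlapping matches. The GAS pattern TTCNNNGAA, which reads the same on both strands, was present in Igtp, Irgm2 and, with 2 matches, Gbp7, none of them overlapping the ISRE core, and in 8.30% of all promoters. The Igtp and Irgm2 windows aligned over 271 columns with 247 identical (91.1%). A match describes the letters and is not evidence of binding.

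**Figure D1:**
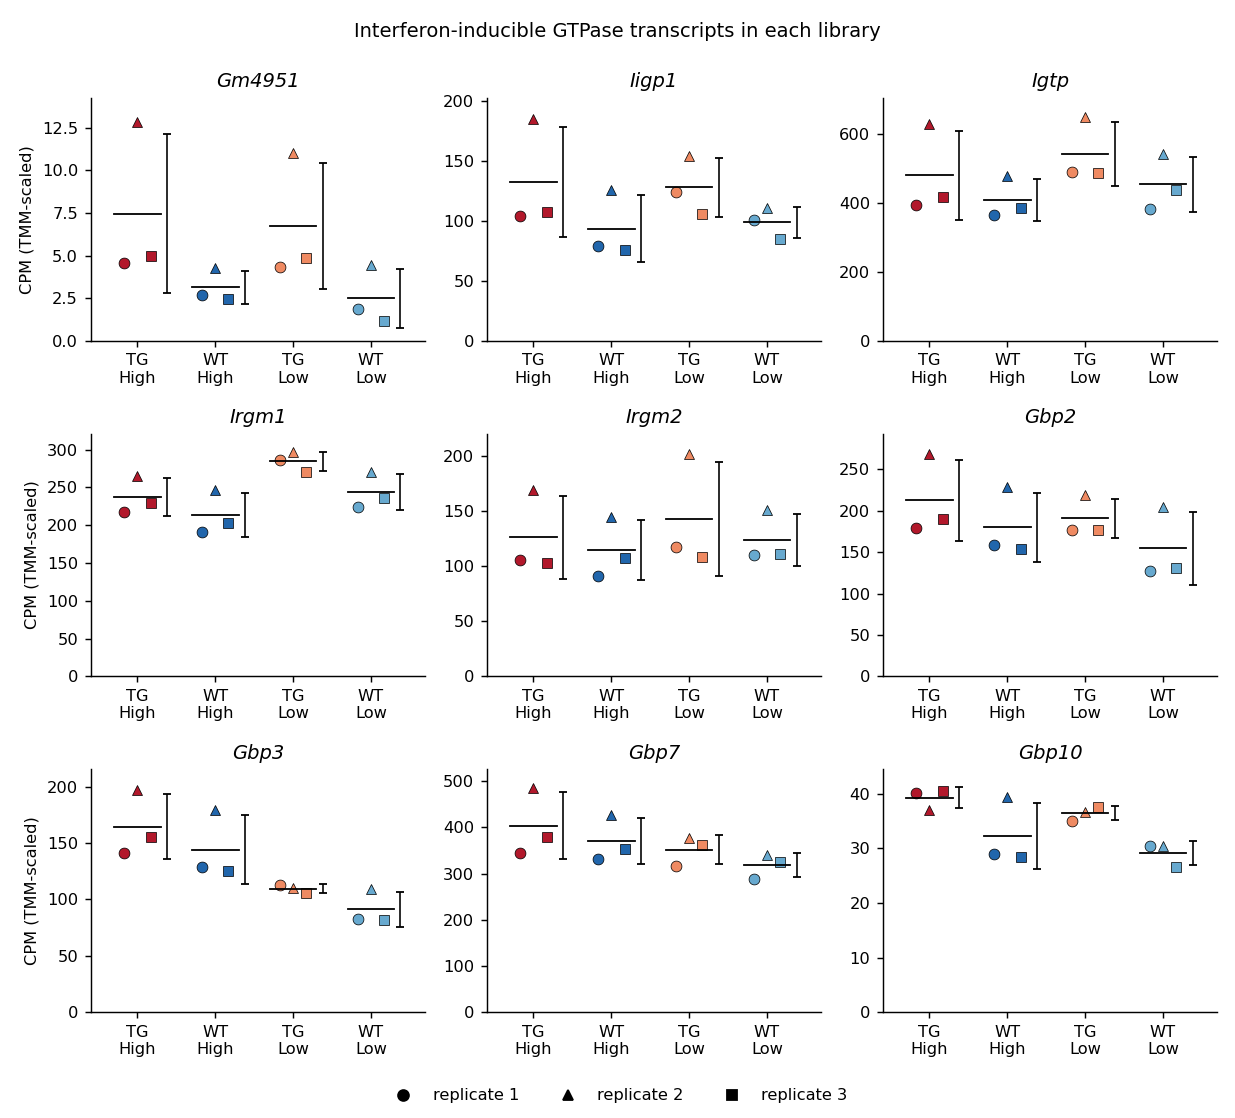
Transcript levels of the 9 members, as TMM-scaled CPM, in TG and WT libraries of each CD25 gate. Symbols are replicates 1 to 3 (circle, triangle, square), lines are group means and bars are SD (n = 3). Replicate 2 is the highest library of its group in 7 of the 9 genes, and Gm4951 spans 1.17 to 12.9 CPM.

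All 9 members were expressed and passed the filter on low counts, as 11766 genes did. Levels are read counts relative to library size (CPM) scaled by the trimmed mean of M-values (TMM), and were compared between genes per kb of exon. Igtp was the most abundant, with a mean of 233.5 CPM per kb over the 12 libraries and a range of 180.2 to 322 that overlapped no other member. Gbp2 (73.4 CPM per kb) and Gbp7 (64.4 CPM per kb) came next, and their ranges overlapped. Both ranges also overlapped those of Gbp3 and Irgm2, and that of Gbp2 overlapped Irgm1 as well. Irgm1 (42.1), Gbp3 (39.0), Irgm2 (34.3) and Iigp1 (19.4 CPM per kb) followed, each overlapping the next. Gbp10 (8.85 CPM per kb) and Gm4951 (1.87 CPM per kb) were lowest and stood apart from each other and from Iigp1. Gm4951 rested on 24 to 218 reads per library, against 1106 or more for each of the other members except Gbp10, which had at least 242.

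Shared sequence limits what a count can be assigned to. Igtp and Irgm2 lie on the + strand of chromosome 11 (58199556 to 58207591 and 58199618 to 58222782, GRCm38), so the Igtp model starts just before that of Irgm2 and overlaps it. Their exons share 162 bases, 8.01% of Igtp and 4.39% of Irgm2. Of the 50-base words of Gbp10 transcripts, 84.1% also occur in transcripts of other genes and 73.3% in Gbp6, so Gbp10 counts are uncertain. For Gbp7 the share was 12.7%, mostly with a predicted gene, and for Gbp3 3.75%, mostly with Gbp7. Irgm1 (chromosome 11, 48861968 to 48871683, - strand) shared 0.379%. Gbp7 (142530342 to 142550149), Gbp3 (142560026 to 142573209) and Gbp2 (142620602 to 142638008) follow one another on the + strand of chromosome 3.

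Totals ran from 6767828 counts (TG High replicate 2) to 23942479 counts per library. Atg5, the floxed gene, had 33.9, 40.4 and 41.5 CPM in TG High and 32.1, 32.0 and 35.7 CPM in WT High, and 36.5, 37.8 and 41.3 CPM in TG Low and 37.5, 36.4 and 37.1 CPM in WT Low. The TG and WT ranges of Atg5 overlapped in each gate. These counts cover the whole gene, so they cannot show whether the floxed part was lost in these T cells. Foxp3, the defining factor of regulatory T cells, ran from 1412 to 1639 CPM in TG High, 1454 to 1662 CPM in WT High, 1098 to 1193 CPM in TG Low and 983 to 1185 CPM in WT Low. Markers of other cells were present: the 6 B cell markers summed to 34.6 to 283 CPM in TG High, 31.5 to 162 CPM in WT High, 37.2 to 288 CPM in TG Low and 35.6 to 205 CPM in WT Low, with the highest value of each group in replicate 1. The 8 myeloid or dendritic markers summed to at most 109 CPM, and up to 4 of them were at 0 in a library.

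The CD25 comparison asked how the members differ between cells with high and low amounts of the interleukin-2 receptor chain. Gbp3 was higher in CD25 High cells of both genotypes. In TG it had 141, 197 and 156 CPM in High and 113, 110 and 105 CPM in Low. In WT it had 129, 179 and 125 CPM in High and 82.9, 109 and 82.0 CPM in Low. High and Low libraries did not overlap in either genotype, and every pair of libraries with the same number showed the same direction.

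Whether Gbp3 passed the test depended on the replicate number. Fitted by group alone, none of the 9 members passed edgeR's quasi-likelihood test with Benjamini-Hochberg adjustment over all genes at 0.05, in TG (where 1 gene, 0.0085% of those tested, did) or in WT (6 genes, 0.051%). At an unadjusted p under 0.05 there were 2 members in TG (Gbp3 and Irgm1) and 1 in WT (Gbp3), and DESeq2 also called 0 in each. Same-numbered libraries of different groups deviated together, and with the replicate number as a replicate block Gbp3 rose by 0.57 ± 0.10 on the log2 scale in TG (SE; 1.48-fold; edgeR adjusted p = 0.00502) and by 0.65 ± 0.10 in WT (1.57-fold; edgeR adjusted p = 0.00133). It was then 1 of 9 members called in each genotype, where 1.68% of all genes were called in TG and 1.63% in WT. Leaving out any of the 12 libraries under the block kept Gbp3 called, at 0.43 to 0.67 in TG and 0.58 to 0.70 in WT on the log2 scale.

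Gbp2, Gbp3 and Gbp7 were higher in High in 6 of 6 same-numbered pairs, 3 of 9 members, against 7.02% of all tested genes. Gbp7, which in mice helps assemble the phagocyte oxidase, had 345, 486 and 380 CPM in TG High and 317, 377 and 362 CPM in TG Low, and 333, 427 and 354 CPM in WT High and 289, 341 and 326 CPM in WT Low. The gates overlapped for Gbp7 in both genotypes. Its blocked log2 difference was 0.19 ± 0.08 in TG and 0.21 ± 0.08 in WT (edgeR adjusted p = 0.311 and 0.266). For Gbp2 the blocked differences were 0.14 ± 0.08 in TG and 0.23 ± 0.08 in WT, and neither passed.

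Igtp, Irgm1 and Irgm2, the 3 regulatory IRG genes, were lower in High in 6 of 6 pairs, where 7.46% of all tested genes were. Irgm1 had 218, 265 and 229 CPM in TG High and 286, 296 and 271 CPM in TG Low. These groups did not overlap. In WT it had 191, 247 and 203 CPM in High and 224, 270 and 236 CPM in Low, and the gates overlapped. Its blocked log2 differences were -0.27 ± 0.07 in TG and -0.19 ± 0.07 in WT (edgeR adjusted p = 0.0930 and 0.347), so it did not pass; DESeq2 with the block called it in TG (adjusted p = 0.0246). Igtp was at -0.19 ± 0.08 in TG and -0.15 ± 0.08 in WT, and Irgm2 at -0.16 ± 0.09 in TG and -0.12 ± 0.09 in WT, neither passing. Iigp1 (0.01 ± 0.11 in TG, -0.12 ± 0.11 in WT), Gm4951 (0.11 ± 0.22 in TG, 0.45 ± 0.25 in WT) and Gbp10 (0.12 ± 0.12 in TG, 0.14 ± 0.12 in WT) did not keep a direction over all 6 pairs.

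**Figure D2:**
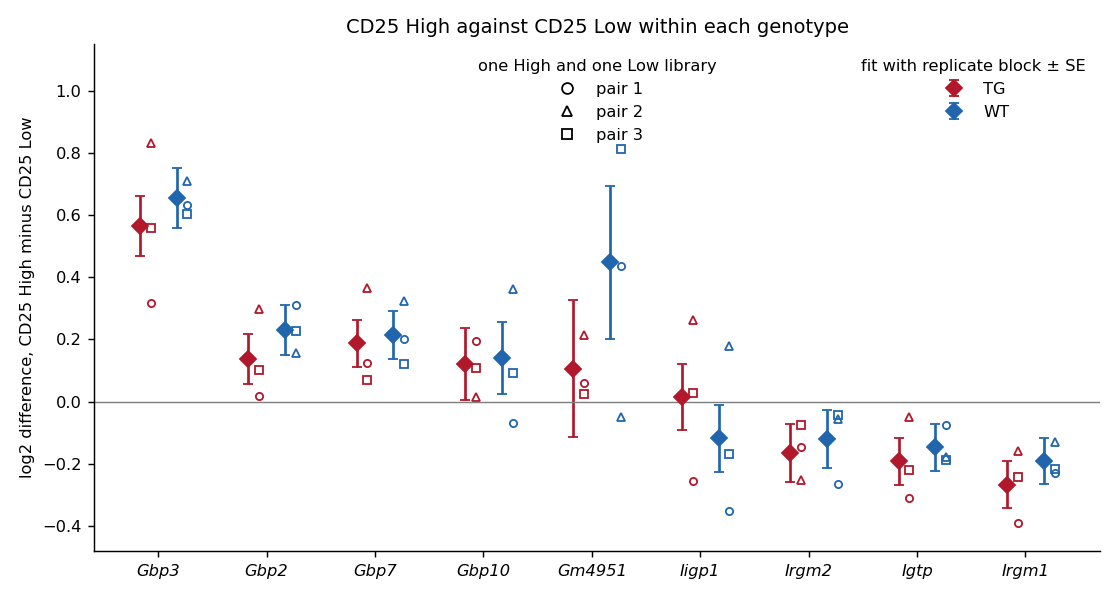
Log2 difference of CD25 High minus CD25 Low for each member. Diamonds with bars are the edgeR fit with replicate block ± SE in TG (red, left) and WT (blue, right), and open symbols are the same-numbered pairs of libraries. Gbp3 stands highest, at 0.57 in TG and 0.65 in WT. The fitted values of all 4 GBP genes lie above 0 and those of Irgm2, Igtp and Irgm1 below it. Gm4951, Iigp1 and Gbp10 lie on both sides of 0 among their pairs.

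None of the 18 tested genes on a list of other interferon-inducible GTPases was called between the gates in either genotype by edgeR, with or without the block (3 in TG and 2 in WT at an unadjusted p under 0.05 with it). The 2 other GBPs with the smallest p values were Gbp2b, at 0.82 ± 0.29 in TG and 0.89 ± 0.29 in WT, and Gbp5, at 0.48 ± 0.16 in TG and 0.43 ± 0.16 in WT, on the blocked log2 scale. The list as a whole had no common direction, with blocked differences above 0 for 10 of 18 genes in TG and 8 of 18 in WT. Of 20 genes for interferon receptors and signalling, 0 were called with the block (2 in each genotype at an unadjusted p under 0.05), and of 33 other interferon-stimulated genes 0 were called (0 in TG and 1 in WT). DESeq2 with the block called Ifnar1 in TG and no other gene of these 3 lists. Ifnar1, a chain of the type I interferon receptor, had the smallest p of the signalling list in TG (0.25 ± 0.07). Ifngr1 and Ifngr2, the interferon gamma receptor chains, differed by 0.01 ± 0.09 and 0.02 ± 0.08 in TG and by 0.01 ± 0.09 and 0.02 ± 0.08 in WT. Irf1 differed by -0.10 ± 0.07 in TG and -0.09 ± 0.07 in WT. The median blocked difference was 0.11 over the 9 members in TG and 0.14 in WT, against 0.00 over all genes in each.

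The gates also differed in markers of the sort and of other cells. Il2ra, which encodes CD25, had a blocked log2 difference of 1.01 ± 0.09 in TG and 1.03 ± 0.09 in WT (edgeR adjusted p = 2.1e-05 and 1.4e-05), and Foxp3 of 0.42 ± 0.08 in TG and 0.51 ± 0.08 in WT. The 5 type 1 effector T cell markers, genes of cells that make or answer interferon gamma, summed to 6.42 to 58.6 CPM in TG High and 9.85 to 145 CPM in TG Low, and to 6.10 to 42.5 CPM in WT High and 8.66 to 107 CPM in WT Low. Of these 5, Cxcr3, a chemokine receptor, fell in High, by 1.35 ± 0.21 in TG and by 1.46 ± 0.20 in WT on the blocked log2 scale (edgeR adjusted p = 0.00398 and 0.00158). Ifng itself had 2.33, 0.459 and 0.281 CPM in TG High and 3.43, 0.808 and 0.530 CPM in TG Low, and 0.911, 0.253 and 0.262 CPM in WT High and 2.21, 0.873 and 0.196 CPM in WT Low. Of 8 CD8 T or NK cell markers, edgeR with the block called 3 lower in High in WT (Klrb1c, Klrd1 and Ncr1, receptors of NK cells). In TG it called 0, where 5 had an unadjusted p under 0.05, and DESeq2 with the block called Ncr1 lower in High. The 8 summed to 56.7 to 62.0 CPM in TG High and 61.0 to 79.2 CPM in TG Low, and to 59.0 to 61.9 CPM in WT High and 52.6 to 78.0 CPM in WT Low. Ncr1 had 0.636, 0 and 0 CPM in TG High and 4.61, 0.404 and 0 CPM in TG Low, and 1.13, 0.0843 and 0 CPM in WT High and 8.42, 2.35 and 0 CPM in WT Low. The blocked differences of all 6 B cell markers (medians of -0.32 in TG and -0.45 in WT) and of all 5 tested myeloid or dendritic markers were below 0 in both genotypes, with 0 called by edgeR (at an unadjusted p under 0.05, 0 B cell markers in TG and 2 in WT, and 3 myeloid or dendritic markers in TG and 2 in WT). The 8 myeloid or dendritic markers summed to 2.11 to 15.7 CPM in TG High and 2.07 to 109 CPM in TG Low, and to 2.61 to 4.93 CPM in WT High and 2.59 to 50.1 CPM in WT Low. The part of these markers in the member differences was not tested.

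Most members differed among the replicate numbers. By a quasi-likelihood F-test of the number in edgeR, 8 of 9 members differed among numbers, Gbp10 being the exception, against 34.3% of all tested genes. Replicate 2 was highest in all 4 groups for Gm4951, Iigp1, Igtp, Irgm1, Irgm2, Gbp2 and Gbp7, 7 of 9, where 6.74% of all genes were. This pattern was chosen after the values were seen. Averaged over groups on the log2 scale, replicate 2 exceeded the mean of the others in its group by 1.12 for Gm4951, 0.63 for Irgm2, 0.55 for Iigp1, 0.51 for Gbp2, 0.45 for Igtp, 0.33 for Gbp3, 0.26 for Gbp7, 0.22 for Irgm1 and 0.11 for Gbp10. Replicate 1 against the mean of the others was lower for 5 of 9 members (Gm4951, Igtp, Irgm2, Gbp2 and Gbp7), at -0.24 to -0.57, where 27.5% of genes were called in either direction.

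**Figure D3:**
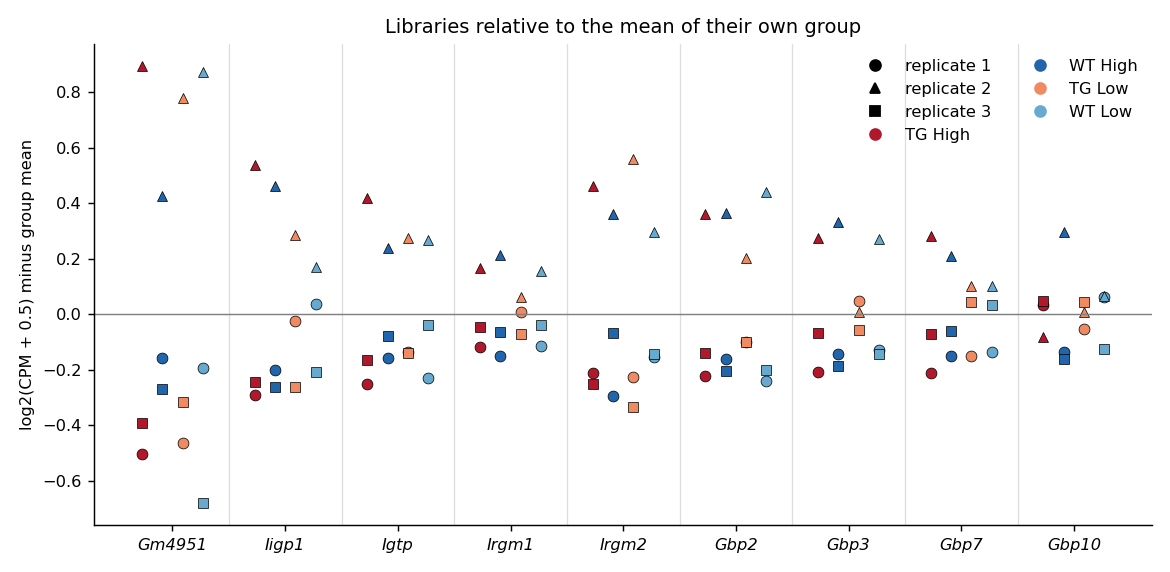
Each library's log2(CPM + 0.5) minus the mean of its own group, for the 9 members, with symbols for replicates 1 to 3 and colours for the 4 groups. Triangles (replicate 2) lie highest in all 4 groups for 7 members, by 1.12 on average for Gm4951. Gbp10 shows no such order.

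Genes for interferon receptors and signalling, a list that is not limited to interferon gamma, followed the same order in part. Replicate 2 was highest in all 4 groups for 5 of the 20 signalling genes tested, Ifngr1, Irf1, Irf2 and Irf9 among them, and by 0.54 for Ifngr1 and 0.39 for Irf1 on the log2 scale. Ifngr1 had 323, 625 and 383 CPM in TG High and 358, 540 and 408 CPM in WT High. Ifngr2 was at -0.02. Ifng was highest in replicate 1 of every group, with a log2 difference of 2.28 ± 0.29 to the others (edgeR adjusted p = 2.3e-05). So were the B cell markers, all 6 of which were called higher in replicate 1, with a median log2 difference of 3.46, and 4 of 5 tested type 1 effector markers (median 2.47). Of 33 other interferon-stimulated genes, 2 (Dtx3l and Ly6e) were highest in replicate 2 of all 4 groups. The part of other cells and of what the numbers mark in the member values was not tested.

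Over the 12 libraries the members correlated with each other, as a description over libraries that share replicate numbers and preparation. Pearson's r of log2(CPM + 0.5) had a median of 0.68 over the pairs of members, from -0.04 (Irgm1 with Gbp3) to 0.92 (Igtp with Irgm2, which share exon bases). After the mean of the 4 libraries with the same number was subtracted, the median was 0.59 and the range -0.39 to 0.90, highest for Gbp3 with Gbp7. The 5 genes whose centred values were most like those of Gm4951 were Nefh (r = 0.94), Hsp90ab1 (0.93), Hsp90b1 (0.89), Arf3 (0.88) and H2-DMa (0.87). Nefh encodes a neurofilament and Hsp90ab1 and Hsp90b1 encode chaperones. For Iigp1 they included 2610318N02Rik (r = 0.93), Hnrnpm (0.92), Ybx1 (0.92) and Mid1ip1 (0.89). Without centring, 1 of the 5 genes remained for each. Centring on the number leaves the TG and WT difference in the values, and Gm4951 and Iigp1 were chosen by that difference. Other genes higher in TG can therefore rank high in both lists.

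The TG and WT comparison asked whether regulatory T cells of mice whose dendritic cells lack autophagy differ, and it is the comparison from which the members were chosen. Gm4951 had 4.56, 12.9 and 4.97 CPM in TG High and 2.68, 4.26 and 2.44 CPM in WT High. The TG and WT libraries did not overlap in that gate. In Low it had 4.35, 11.0 and 4.87 CPM in TG and 1.85, 4.42 and 1.17 CPM in WT, where the WT replicate 2 library overlapped the TG range by a small margin. Pair by pair the log2 differences were 0.67, 1.49 and 0.90 in High and 1.05, 1.23 and 1.68 in Low. Iigp1 had 104, 185 and 107 CPM in TG High and 78.9, 125 and 75.5 CPM in WT High, and 124, 154 and 105 CPM in TG Low and 101, 111 and 85.0 CPM in WT Low. The groups overlapped in both gates, and the pairs gave 0.39, 0.56 and 0.51 in High and 0.30, 0.48 and 0.31 in Low.

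The other 7 members differed less. Log2 differences of TG minus WT, fitted by group, were 0.23 (Igtp), 0.15 (Irgm1), 0.13 (Irgm2), 0.24 (Gbp2), 0.19 (Gbp3), 0.12 (Gbp7) and 0.28 (Gbp10) in High, with SEs of 0.12 to 0.28. In Low they were 0.26, 0.22, 0.20, 0.30, 0.26, 0.14 and 0.32 in the same gene order. Single libraries moved these values by more than 1.5 times. Without TG High replicate 2 the differences in High were -0.01 for Igtp, -0.14 for Irgm2, -0.03 for Gbp7, 0.04 for Gbp2, 0.04 for Gbp3, 0.06 for Irgm1, 0.18 for Iigp1 and 0.61 for Gm4951, and without WT High replicate 2 they were 0.36, 0.33, 0.23, 0.44, 0.37, 0.27, 0.77 and 1.52 in that order. In Low, Irgm2 was at -0.13 without TG Low replicate 2. All members but Irgm2 and Gbp10, 7 of 9, were above WT in 6 of 6 pairs, beside 3.47% of all tested genes. All TG libraries exceeded all WT libraries for Gm4951 in High (1.98% of genes) and for Irgm1 and Gbp10 in Low (1.58% of genes). Over all 11766 genes, edgeR called none in High (0%, 99 genes at an unadjusted p under 0.05) or in Low (0%, 48 genes), with DESeq2 also at 0. With the replicate block edgeR called 0 and DESeq2 7 in High and 2 in Low.

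The genotype difference was not shown to differ between the gates. The difference of TG minus WT between High and Low ran from -0.21 (Gm4951) to 0.12 over the members on the log2 scale, with SEs of 0.16 to 0.79. None of 9 members and none of 11766 genes (0%) was called by edgeR, with 27 genes at an unadjusted p under 0.05 and 0 called by DESeq2. Of the other interferon-inducible GTPases, F830016B08Rik, Gbp6 and Tgtp2 (3 of 18) were above WT in 6 of 6 pairs, of the signalling genes 2 of 20, Irf2 among them, and of the other interferon-stimulated genes 0 of 33. By the sign of the group fit, 29 of those 33 genes were higher in TG in High and 28 in Low. So were 15 and 12 of the 18 other GTPases and 14 and 12 of the 20 signalling genes. Of all tested genes, 53.4% were higher in High and 52.4% in Low. B cell markers moved with genotype as well: 4 of 6 were higher in TG in 6 of 6 pairs, and their median log2 difference was 0.76 in High and 0.55 in Low. Their sums by replicate were 283, 57.4 and 34.6 CPM in TG High and 162, 34.2 and 31.5 CPM in WT High, and their part in the result was not tested.

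Gm4951 and Iigp1 lie on the same strand of chromosome 18, at 60212080 to 60247820 and 60376027 to 60392634 (GRCm38), with starts 164 kb apart. Between them lie Gm4841 and F830016B08Rik, also IRG genes by their RefSeq synonyms (Ifgga3 and Ifgga4). As a description of values seen before the genes were picked, all 4 were higher in TG in 6 of 6 pairs, with a median log2 difference of 0.83 in High and 1.16 in Low. Gm4951 and Iigp1 count among these 4, and the set was chosen because they were higher in TG. Gm4841 was at 1.18 in High and 1.25 in Low, and F830016B08Rik at 0.37 and 1.07. Both were near the floor, F830016B08Rik with 12 to 87 reads per library. Their TG and WT libraries overlapped in each gate. Gm4841 had 2.65, 5.05 and 1.64 CPM in TG High and 1.45, 1.85 and 0.741 CPM in WT High. Of 13 tested genes outside this interval within 1 Mb, 2 (Rps14 and Cd74) were higher in 6 of 6 pairs and the median was 0.03 in High and 0.06 in Low. All 13 lie on the same side, with starts 262 to 1086 kb after that of Gm4951. The stretch before Gm4951 held no tested gene, so that side is not described. Cd74, which B cells express at high levels, had 513, 114 and 38.6 CPM in TG High and 290.0, 51.1 and 29.7 CPM in WT High.

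**Figure D4:**
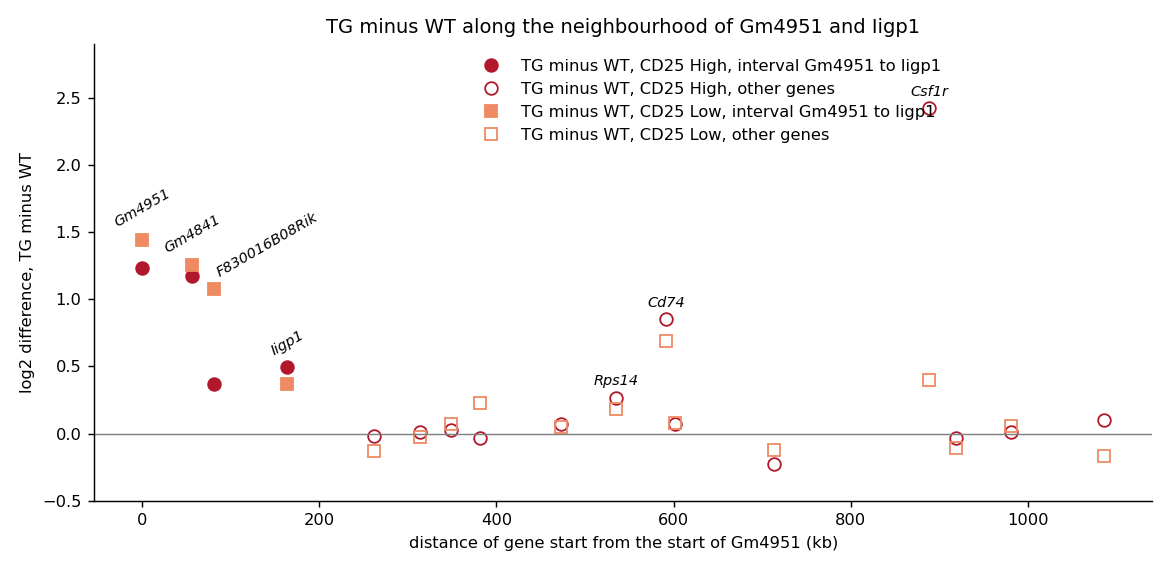
Log2 difference of TG minus WT for tested genes within 1 Mb of Gm4951 and Iigp1, by distance of the gene start from that of Gm4951. Circles are CD25 High and squares CD25 Low, filled for the 4 IRG genes from Gm4951 to Iigp1 and open for 13 others. Those 13 all start after Iigp1. The 4 filled pairs lie between 0.37 and 1.44, with Gm4951 and Iigp1 among them chosen as higher in TG. The open ones have medians of 0.03 and 0.06, with Cd74 and, in High, Csf1r above the rest. Csf1r had 1.59, 0 and 0.0469 CPM in TG High and 0.107, 0.0421 and 0.174 CPM in WT High, so its value in High rests on TG High replicate 1.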

How the data were processed

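The authors deposited raw counts per gene for 12 libraries. Per the labels' protocols, RNeasy Mini RNA (10 ng) was amplified by the SMARTer Ultra Low kit, which does not record strand. The submitters' processing notes name GRCm38, featureCounts 1.4.6, STAR 2.4 and CASAVA 1.8.2, without their settings. Counts that cannot be placed between overlapping or near-identical genes may be split or dropped.

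Symbols and positions came from GENCODE vM21 (21628 of 21839 identifiers matched). Counts were tested with edgeR 4.0.16 in R 4.3.3 (TMM, filterByExpr with a minimum count of 10, robust quasi-likelihood fit over all 12 libraries with group as factor, Benjamini-Hochberg at 0.05 over 11766 genes). The edgeR SE is the size of the log2 difference divided by the square root of its F statistic. The fits were also run on simulated data. Those data held no difference between replicate numbers, so they cannot decide between fits with and without the block. DESeq2 1.42.0, other size factors, no filter, left-out libraries and left-out replicate numbers were alternatives. For 3 against 3 libraries the smallest two-sided exact permutation p is 0.1. The labels share replicate numbers: deviations from group means correlated at 0.38 to 0.84 for same-numbered libraries (18 pairs) and at -0.68 to 0.20 for others (36 pairs), so a fit with the number as a replicate block is given beside results it changes. Replicates differed by more than counting noise (chi-square per degree of freedom 21.0 to 48.1), and intervals of counts would cover counting error only.

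The members and gene lists were chosen with earlier results of these data known. Named genes are all 9 members, list genes called or with the smallest p, the 5 genes most like Gm4951 and Iigp1 (mean of at least 1 CPM, pseudocount 0.5), and Atg5, Irf1, Ifng, Ifngr1, Ifngr2, Foxp3 and Il2ra. The values of some genes under this rule are not reported here. Protein sequences were not used here.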

Additional observations from a re-analysis of the deposited data

How the results depend on the processing

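The replicate block changed the gate results most. High minus Low in TG gave 1 called gene by group alone, 3 with no filter, 63 with DESeq2 and 198 with the replicate block. High minus Low in WT gave 6 by group alone, 46 with DESeq2 and 192 with the block. Without the 4 libraries numbered 1 the counts were 0 in TG and 0 in WT, and 39 and 49 with the block. Without those numbered 2 they were 0 and 0, and 237 and 145 with the block. Leaving out 1 library gave 0 to 3 in TG and 0 to 7 in WT, and with the block 74 to 235 in TG and 87 to 247 in WT. The block counts moved most without replicate 1 of the gates compared: 74 without TG Low replicate 1, 91 without TG High replicate 1, 87 without WT Low replicate 1 and 96 without WT High replicate 1. By group alone the TG count changed without TG High replicate 1, 2 or 3, TG Low replicate 2 or 3 or WT High replicate 2, and the WT count fell to 3 or fewer without TG High replicate 2 or 3, WT High replicate 1, 2 or 3 or WT Low replicate 1 or 2. DESeq2 with the block called 358 in TG. Members called with the block were 1 in each genotype, also without the libraries numbered 1, and 2 in TG and 1 in WT without those numbered 2, where Irgm1 joined Gbp3 (edgeR adjusted p = 0.0499); DESeq2 with the block also called 2 in TG. TG minus WT in Low gave 0 genes, and 6 without the libraries numbered 2 under the block. Replicate 1 against the others gave 3239 genes, and 2081 (without TG Low replicate 1) to 3958 with 1 library left out.

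TG minus WT differences of members changed sign in 4 of 108 values in High and 1 of 108 in Low with 1 library left out: Igtp (-0.0083), Irgm2 (-0.1351) and Gbp7 (-0.0319) in High without TG High replicate 2, Irgm2 in High without WT High replicate 1 (-0.0087) and Irgm2 in Low without TG Low replicate 2 (-0.1325). Under the other alternatives 0 of 72 did in each gate. Among the uncalled gate differences, 1 library left out moved the log2 value across 0 for Gm4951 in TG (-0.50 to 0.67) and in WT (-0.001 to 1.05), Iigp1 in TG (-0.28 to 0.19) and in WT (-0.36 to 0.048), Gbp2 in TG (-0.049 to 0.26), Irgm2 in TG (-0.45 to 0.15) and in WT (-0.31 to 0.058) and Gbp10 in WT (-0.024 to 0.23). Iigp1 in TG was also at -0.13, and at -0.12 with the block, without the libraries numbered 2, and in WT at 0.037 and 0.0012 without those numbered 1. The cause was not tested. Depth limits Gm4951 most, with as few as 24 reads in a library.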

Other observations

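A group of other interferon-stimulated genes stood in another order than the 9 IRG and GBP members. For 9 of 33 such genes (Cmpk2, Ifit1, Ifit3, Ifit3b, Isg15, Oas3, Rsad2, Rtp4 and Xaf1), and for Mx1, Mx2 and Irf7, replicate 2 was lowest in both TG groups and highest in both WT groups, a pattern that 0.85% of all tested genes and none of the 9 IRG and GBP members showed. Ifit3 had 38.2, 20.4 and 41.8 CPM in TG High and 29.6, 45.3 and 19.4 CPM in WT High, and 41.8, 23.5 and 46.1 CPM in TG Low and 30.3, 42.1 and 21.7 CPM in WT Low. Mx1, an antiviral GTPase, had 16.7, 5.20 and 17.3 CPM in TG High and 10.6, 12.7 and 8.80 CPM in WT High. These genes are best known as targets of type I interferon. Foxp3, a gene outside the interferon lists, showed the same pattern. The pattern was picked after the values were seen and was not tested.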
